A study of Mus musculus with 6 samples.

Results

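The 10 genes described here encode transcription factors that act at and after T-cell activation: Fosl2, Jun, Junb and Jund of the AP-1 family, Batf and Batf3, Irf4 and Irf8, and Nfatc1 and Nfatc3 of the NFAT family. They were taken as a named list, matched by Ensembl identifier to mouse symbols, and were 10 of 25655 listed genes. Utx KO CD8 T cells (3 libraries) were set against WT CD8 T cells (3 libraries), all from spleens of female C57BL/6 mice. Naive cells, low in CD44 and high in CD62L, were kept for 2 days on immobilized antibodies, 3 µg/ml against TCR-β and 1 µg/ml against CD28, and then 3 days without them, with 10 ng/ml of interleukin 2 in both periods. RNA was therefore taken on day 5, when the receptor stimulus had been absent for 3 days. The labels give neither the animals' age, nor the deleted stretch of the gene, nor the promoter of any Cre. Utx, listed under its symbol Kdm6a, is a histone demethylase that removes methyl marks from lysine residues of histone H3 associated with silenced genes.

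Receptor signals reach these factors by separate routes. Calcium entering the cell activates the phosphatase calcineurin, which strips phosphates from NFAT proteins so that they enter the nucleus, while MAP kinases raise the amount and activity of Fos and Jun proteins. Fos-type proteins bind DNA only as a partner of a Jun protein, together forming AP-1. Batf and Batf3 lack an activation domain, also pair with Jun proteins, and form composite complexes with Irf4 or Irf8 on DNA. In CD8 T cells, Batf and Irf4 are known to be needed for effector expansion, and NFAT without AP-1 partners is known for the genes of exhaustion and anergy.

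Of the 10 factors, 2 fell in Utx KO cells, Fosl2 and Nfatc1, and none rose. Both were lower in every Utx KO library than in any WT library, by about the same proportion, with means at 70.6% of WT for Fosl2 and 74.1% for Nfatc1. Irf4 was also lower in each Utx KO library and Batf3 higher in each, but neither passed the threshold of an adjusted p under 0.05. The other 6 factors, Jun, Junb, Jund, Batf, Irf8 and Nfatc3, had overlapping values in the 2 genotypes. Because these were bulk cultures, fewer cells expressing a gene and less RNA per cell cannot be told apart. Levels are in CPM, which puts all libraries on an equal total, and were compared on the scale log2(CPM + 1) with limma-trend over 10590 genes, so fold changes of low genes are understated. Among all tested genes 10.8% were called in either direction, 5.51% as lower and 5.28% as higher in Utx KO. Groups that did not overlap were found for 4 factors, 3 of them lower in Utx KO and 1 higher, against 26.5% of all tested genes, 12.6% lower and 14.0% higher. The median log2 fold change of the 10 factors was -0.10, against 0.01 for all tested genes, and 8 of the 10 values were negative. On reads recovered from the CPM, edgeR called 4 factors, Fosl2, Nfatc1 and Irf4 as lower and Batf3 as higher, against 12.5% of the genes it tested.

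**Figure D1:**
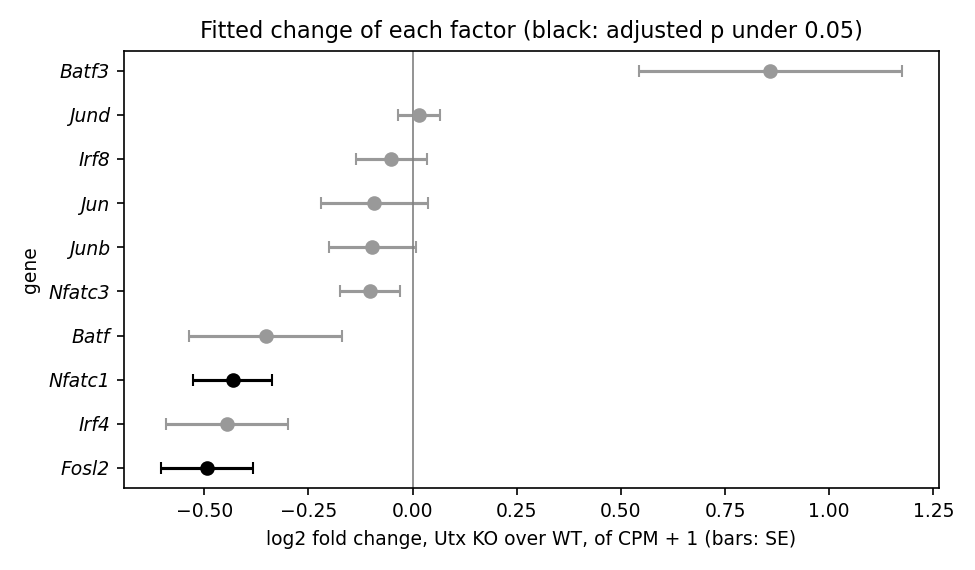
Log2 fold change (Utx KO over WT, on log2(CPM + 1)) of each of the 10 factors, with bars of 1 SE on either side from limma-trend over 6 libraries; black marks an adjusted p under 0.05. Nfatc1 at -0.43 and Fosl2 at -0.49 passed the threshold, and Batf3 at 0.86 has the widest bar.

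The libraries held 1619085 to 2517655 reads in Utx KO and 1827703 to 2529113 reads in WT. A gene with no read could still stand at up to 1.19 to 1.85 CPM in Utx KO and 1.19 to 1.64 CPM in WT, which is 3 reads; this limit and all intervals from reads cover counting error only. Across all genes 1142 were called, 559 higher and 583 lower in Utx KO, but 747 without WT replicate 2 and 551 with DESeq2. Kdm6a, the targeted gene, had 27.8, 39.4 and 31.5 CPM in Utx KO and 44.3, 49.3 and 53.6 CPM in WT (log2 fold change -0.57, SE 0.15, limma-trend adjusted p = 0.0123). Its groups did not overlap, but a 3' tag outside the deleted stretch checks nothing, and that stretch is not given; the adjusted p was 0.0985 with DESeq2, 0.0526 without Utx KO replicate 1, 0.0521 without WT replicate 2 and 0.0710 without WT replicate 3. CD8 T-cell markers (Cd8a and Cd8b1) summed to 708 to 709 CPM in Utx KO and 599 to 645 CPM in WT. Cd8b1 was called as higher in Utx KO (limma-trend adjusted p = 0.0318, kept under 12 of 17 alternatives), and Cd8a was not (0.0923). Of 4 CD4 T-cell markers, 3 had reads, with sums of 11.1 to 13.5 CPM in Utx KO and 11.5 to 17.5 CPM in WT. Most were from Foxp3, with 43 reads in Utx KO and 61 in WT, and Zbtb7b, with 29 and 40. Cd4 itself was listed at 0 in every library, and 6 of 7 general T-cell markers were detected, Trac being listed at 0. Of these, Cd5, Cd3d and Cd3e were called as higher in Utx KO (limma-trend adjusted p = 3.31e-05, 0.000224 and 0.00850). Cd2 was called as lower (0.00147), and Cd3g and Cd247 were not called (0.305 and 0.593). The call of Cd3e held under 15 of 17 alternatives. Of 7 macrophage and monocyte markers, 2 had reads, with sums of 7.55 to 12.4 CPM in Utx KO and 6.72 to 8.29 CPM in WT, while Lyz2, Adgre1, Itgam, Cd14 and Fcgr1 were at 0. Most of it was Cd68, at 7.55 to 10.3 CPM in Utx KO and 4.61 to 7.11 CPM in WT, without overlap. Cd68 was not called (limma-trend adjusted p = 0.331). Of 4 NK-cell markers, 3 had reads, with sums of 0.571 to 1.85 CPM in Utx KO and 1.38 to 2.37 CPM in WT, and Ncr1 was at 0. Of 6 erythroid and platelet markers, 2 had reads, with sums of 1.19 to 3.09 CPM in Utx KO and 0 in WT, and of 3 plasma-cell markers 2 had reads, with sums of 0.571 to 1.19 CPM in Utx KO and 0 in WT. All 4 neutrophil markers were at 0, and the part of any of these cells in the results was not tested.

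The promoters shown here belong to the 3 factors whose groups did not overlap and that have an entry in the RefSeq promoter table (build GRCm38.p6). Each runs from 250 bases before the annotated start to 50 bases after it, on the plus strand, and is printed to show the letters that were searched; of the 3, Fosl2 passed the test and Irf4 and Batf3 did not. Capitals mark matches, on either strand, to AP-1 (TGANTCA), to the cAMP response element (TGACGTCA), to the NFAT core (GGAAA), or to an IRF pair, which is GAAA repeated after a gap of 2 bases of any kind. Fosl2 lies at chr5:32136222-32136521, Irf4 at chr13:30748983-30749282 and Batf3 at chr1:191098164-191098463.
Fosl2: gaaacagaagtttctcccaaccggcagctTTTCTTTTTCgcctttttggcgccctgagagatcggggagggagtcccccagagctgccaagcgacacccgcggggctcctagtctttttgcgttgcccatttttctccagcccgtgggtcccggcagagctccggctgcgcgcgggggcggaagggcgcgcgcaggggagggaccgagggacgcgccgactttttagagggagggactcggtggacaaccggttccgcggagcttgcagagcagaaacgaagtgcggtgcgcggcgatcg
Irf4: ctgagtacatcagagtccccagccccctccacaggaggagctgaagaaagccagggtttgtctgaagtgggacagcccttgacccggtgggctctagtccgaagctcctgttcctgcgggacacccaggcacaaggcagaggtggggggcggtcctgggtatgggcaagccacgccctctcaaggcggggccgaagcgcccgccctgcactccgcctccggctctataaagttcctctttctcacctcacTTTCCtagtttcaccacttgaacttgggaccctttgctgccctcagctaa
Batf3: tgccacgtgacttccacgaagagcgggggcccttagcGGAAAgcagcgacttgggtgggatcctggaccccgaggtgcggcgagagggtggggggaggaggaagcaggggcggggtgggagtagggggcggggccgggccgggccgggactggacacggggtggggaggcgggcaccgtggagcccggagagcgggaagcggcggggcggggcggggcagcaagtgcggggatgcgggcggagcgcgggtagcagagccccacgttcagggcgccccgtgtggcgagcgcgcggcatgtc
The capitals in Fosl2 are an IRF pair on the opposite strand, 221 bases before the start. Fosl2 was the only 1 of 9 factors with an entry that held one. The 9 factors had 11 promoter entries, Irf8 and Nfatc3 having 2 each. By entry, the IRF pair was in 1 of 11, against 3.44% of 32851 promoters. The capitals in Irf4 are an NFAT core on the opposite strand that begins at the annotated start. In Batf3 they are an NFAT core 213 bases before the start. An NFAT core was found in 6 of the 9 factors. By entry it was in 7 of 11, against 61.3% of all promoters. No factor's promoter entry held the AP-1 letters, which 7.81% of all promoters held, or those of the cAMP response element, at 1.79%. The entries do not all sit at the gene starts of GENCODE M21, the annotation used for gene positions. Those of Fosl2 and Batf3 lie inside the gene, and that of Jund (chr8:70697489-70697788) ends before its gene begins at 70698949. The search therefore does not cover every annotated start of these factors. No match overlapped another motif's match in these promoters, and a match or its lack describes letters only.

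Fosl2, also called Fra-2, is a Fos-type partner in AP-1 and was the most abundant of the 4 Fos-type genes in these cells. It had 63.2, 56.5 and 61.8 CPM in Utx KO libraries and 96.1, 80.6 and 80.4 CPM in WT libraries. Every Utx KO library was below the lowest WT library, with a gap wider than the range of the 3 Utx KO values. The means were 60.5 ± 3.48 CPM in Utx KO and 85.7 ± 8.98 CPM in WT (SD, n = 3 each), resting on 358 and 565 pooled reads. The log2 fold change was -0.49 (SE 0.11, limma-trend adjusted p = 0.00375). The gene is annotated at chr5:32135801-32157842 on the plus strand (GENCODE M21, GRCm38), with no exon overlapping that of another gene.

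The other Fos-type genes were close to the detection limit on day 5. Fos, the founding member and an immediate-early gene, had 6.75, 0 and 0.618 CPM in Utx KO and 3.95, 0.922 and 1.09 CPM in WT. Fosb, its close relative, had 2.78, 0 and 1.24 CPM in Utx KO and 3.16, 0 and 0 CPM in WT. In both genotypes replicate 1 held the highest value of each gene. Fosl1, which encodes Fra-1, had 0 reads in Utx KO and 1 read in WT and was not tested. Neither Fos (limma-trend adjusted p = 0.882) nor Fosb (adjusted p = 0.802) passed the test.

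Jun, Junb and Jund encode the Jun proteins with which Fos and Batf proteins pair, and their tags did not separate the genotypes. Jun, the founding member and target of the kinase JNK, had 65.9, 58.3 and 49.4 CPM in Utx KO and 60.5, 54.8 and 69.5 CPM in WT. The highest WT library was above all Utx KO libraries, but Utx KO replicate 1 was above the other WT values. Junb, a Jun protein also known as a partner of Batf, had 124, 118 and 98.8 CPM in Utx KO and 139, 105 and 122 CPM in WT. Jund, the most abundant of the 10 factors and known as a Jun protein present in resting cells, had 738, 711 and 679 CPM in Utx KO and 670, 717 and 717 CPM in WT. All 3 genes had groups that overlapped. The log2 fold changes, with 95% intervals from limma-trend, were -0.09 for Jun (-0.36 to 0.17, adjusted p = 0.739), -0.10 for Junb (-0.31 to 0.12, adjusted p = 0.656) and 0.02 for Jund (-0.09 to 0.12, adjusted p = 0.906). The Jund interval, from 4202 reads in Utx KO and 4562 in WT, leaves out a change the size of that of Fosl2, as do those of Jun and Junb, whose lower ends are above -0.49. The sign of each of the 3 estimates depended on single libraries. It turned for Jun without Utx KO replicate 3 (0.02), for Junb without Utx KO replicate 3 (0.00054) or WT replicate 1 (0.0020), and for Jund without Utx KO replicate 1 (-0.013) or WT replicate 1 (-0.02).

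The make-up of the Jun family by tags was also close in both genotypes. The 3 genes summed to 881 ± 50.2 CPM in Utx KO and 885 ± 21.0 CPM in WT (SD, n = 3 each). A 3' library is meant to give about 1 tag per transcript, so levels of different genes were set beside each other without scaling by length. How evenly different genes were captured and counted was not tested, so shares and orders of level between genes rest on that assumption. Jund made up 80.6 ± 1.34% of the sum in Utx KO and 79.3 ± 2.38% in WT. Junb made up 12.9 ± 0.809% and Jun 6.55 ± 0.570% in Utx KO, against 13.8 ± 2.04% for Junb and 6.95 ± 0.695% for Jun in WT. Each difference in share was smaller than the SD of at least 1 group. On the opposite strand, exons of Junb overlap those of Prdx2, a peroxide-removing enzyme with 127 ± 4.45 CPM in Utx KO and 91.0 ± 1.42 CPM in WT (log2 fold change 0.48, SE 0.09, limma-trend adjusted p = 0.000527). The strand setting of the counting is not given, so the part of such reads in the values of Jun, Junb, Jund and Nfatc3 was not tested. Jun (chr4:95049034-95052222, minus strand) and Jund (chr8:70698949-70700616, plus strand) also overlap an antisense gene, while Junb lies at chr8:84974484-84978718 on the minus strand.

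**Figure D2:**
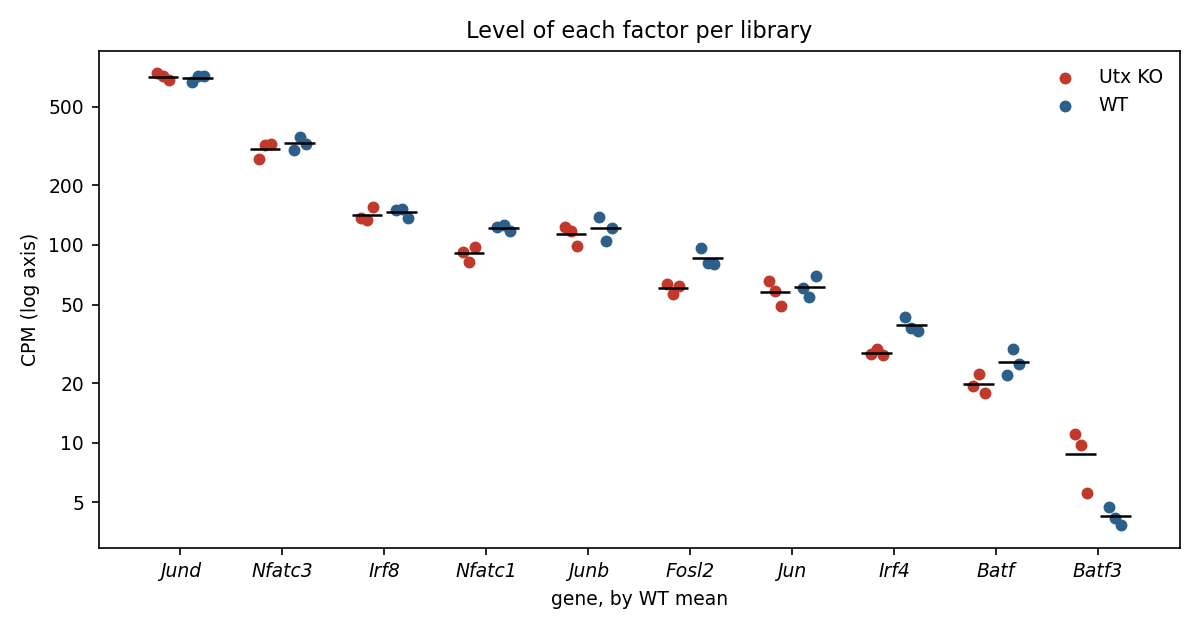
CPM of each of the 10 factors in the 3 Utx KO and 3 WT libraries, on a log axis, with points for libraries and short black lines for group means; genes run from high to low WT mean. Fosl2, Irf4 and Nfatc1 have every Utx KO point below every WT point, Batf3 has every Utx KO point above, and the other 6 overlap.

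Batf and Batf3 are small leucine zipper proteins that compete with Fos proteins for Jun partners. Batf had 19.5, 22.3 and 17.9 CPM in Utx KO and 22.1, 30.0 and 25.2 CPM in WT. The groups touched: the highest Utx KO value was above the lowest WT value. The log2 fold change was -0.35 (95% interval -0.73 to 0.03, limma-trend adjusted p = 0.265), an interval that holds both 0 and the size of the change of Fosl2. Batf3, best known for the development of cross-presenting dendritic cells, had 11.1, 9.71 and 5.56 CPM in Utx KO and 4.74, 4.15 and 3.83 CPM in WT. Every Utx KO library was above every WT library, though Utx KO replicate 3 lay nearer to WT than to the other Utx KO libraries. The means were 8.80 ± 2.89 CPM in Utx KO and 4.24 ± 0.464 CPM in WT (SD, n = 3 each), a log2 fold change of 0.86 (SE 0.31, limma-trend adjusted p = 0.0878).

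Batf3 rested on few reads, 54 in Utx KO and 28 in WT, a pooled CPM ratio of 2.14 with an exact 95% counting interval of 1.33 to 3.51. It passed the threshold with edgeR (log2 fold change 1.07, adjusted p = 0.0471) and without Utx KO replicate 3 (log2 fold change 1.12, limma-trend adjusted p = 0.0297), and not under the other 15 alternatives, where the adjusted p reached 0.372 with DESeq2. Of the tags of the pair, Batf3 took 36.4%, 30.4% and 23.7% in Utx KO libraries and 17.6%, 12.2% and 13.2% in WT libraries. The 2 groups of shares did not overlap, at 30.1 ± 6.34% in Utx KO and 14.3 ± 2.91% in WT. The sum of both genes was 28.7 ± 4.57 CPM in Utx KO and 30.0 ± 3.71 CPM in WT, a difference below the SD of either group. Markers of dendritic cells, in which Batf3 is also expressed, summed to 96.0 to 108 CPM in Utx KO and 73.3 to 93.3 CPM in WT, most of it from H2-Ab1. H2-Ab1 was called as higher in Utx KO (limma-trend adjusted p = 0.0357), a call kept under 12 of 17 alternatives. The defining genes Flt3, Clec9a and Siglech were at 0 in every library, 4 of the 7 markers had reads, and Zbtb46 had at most 5.14 CPM in Utx KO and 9.88 CPM in WT. Batf lies at chr12:85686669-85709087 and Batf3 at chr1:191097847-191108945, both on the plus strand with no overlapping exon of another gene.

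Irf4 and Irf8 are interferon regulatory factors that bind DNA with Batf–Jun dimers, Irf4 being induced in step with the strength of the receptor signal. Irf4 had 28.2, 29.7 and 27.8 CPM in Utx KO and 43.1, 38.2 and 36.7 CPM in WT. The 3 Utx KO values lay close together and below all WT values. The means were 28.6 ± 1.00 CPM in Utx KO and 39.3 ± 3.35 CPM in WT (SD, n = 3 each), from 168 and 259 reads. Its log2 fold change of -0.45 (SE 0.15, 95% interval -0.75 to -0.14) was near those of Fosl2 and Nfatc1, but its limma-trend adjusted p was 0.0533. The adjusted p fell under 0.05 with a filter of at least 5 CPM (0.0467), with TMM scaling (0.0485), with edgeR (0.0447) and with limma-voom (0.0425), and stayed above it under the other 13 alternatives, up to 0.328 with DESeq2. Irf8, which in lymphocytes is known for roles in B cells and in effector CD8 T cells, had 136, 133 and 155 CPM in Utx KO and 150, 152 and 137 CPM in WT. The highest value of Irf8 was in a Utx KO library and the lowest in another, and its log2 fold change was -0.05 (95% interval -0.23 to 0.13, limma-trend adjusted p = 0.796).

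Irf8 was the more abundant of the pair in every library. Irf4 took 17.1%, 18.2% and 15.2% of their joint tags in Utx KO and 22.3%, 20.1% and 21.1% in WT. The 2 groups of shares did not overlap, and the mean share of Irf4 was 4.31 percentage points lower in Utx KO, at 16.9 ± 1.54% against 21.2 ± 1.10% in WT. Irf4 is annotated at chr13:30749226-30766976 and Irf8 at chr8:120736358-120756694, both on the plus strand and without overlapping exons of other genes. B-cell markers, of which Cd79a, Ms4a1, Cd22, Pax5 and Blk were at 0, summed to 0.571 to 1.85 CPM in Utx KO and 2.76 to 5.47 CPM in WT. Most of these tags were Cd79b, with 8 reads in Utx KO and 25 in WT and no overlap between the groups, lower in Utx KO as Irf4 was. Cd79b was not called (limma-trend adjusted p = 0.0970). B cells also express Irf4 and Irf8, and their part in the values of both genes was not tested.

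Nfatc1 and Nfatc3 encode calcium-responsive NFAT proteins, Nfatc1 being the member with an inducible promoter that NFAT itself activates. Nfatc1 had 92.5, 81.7 and 98.2 CPM in Utx KO and 124, 126 and 118 CPM in WT. The lowest WT library was above the highest Utx KO library, and the 3 WT values were the closer together. The means were 90.8 ± 8.40 CPM in Utx KO and 123 ± 4.44 CPM in WT (SD, n = 3 each), from 535 and 802 reads, with a log2 fold change of -0.43 (SE 0.09, limma-trend adjusted p = 0.00309). The call of Nfatc1, like that of Fosl2, held under all 17 alternatives, with adjusted p between 0.00134 and 0.0265 for Nfatc1 and between 0.00177 and 0.0472 for Fosl2, both highest values coming from fits without 1 library. Nfatc3 had 273, 319 and 323 CPM in Utx KO and 303, 353 and 326 CPM in WT, with groups that overlapped. Its log2 fold change of -0.10 (95% interval -0.25 to 0.05, limma-trend adjusted p = 0.447) leaves out a change the size of that of Nfatc1.

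Nfatc2, the NFAT member long known as constitutive in T cells, was not among the 10 factors and had 35.0, 41.1 and 46.9 CPM in Utx KO and 56.1, 57.1 and 50.9 CPM in WT. Each Utx KO value was below each WT value, with a log2 fold change of -0.42 (SE 0.13, limma-trend adjusted p = 0.0477). That call sat at the threshold and was lost under 10 of 17 alternatives, up to 0.258 with DESeq2, including fits without Utx KO replicate 1 (0.176), Utx KO replicate 2 (0.0944), WT replicate 1 (0.144), WT replicate 2 (0.171) or WT replicate 3 (0.0626). The summed tags of Nfatc1, Nfatc2, Nfatc3 and Nfat5 were 411, 448 and 478 CPM in Utx KO and 493, 548 and 501 CPM in WT, without overlap. Nfatc3 made up the larger part, 68.4 ± 2.59% in Utx KO and 63.6 ± 1.88% in WT, while Nfatc1 made up 20.4 ± 2.13% in Utx KO and 23.9 ± 1.10% in WT. Nfatc1 (chr18:80606205-80713071, minus strand) has 6 coding transcripts with 2 distinct 3' ends, and the tags of both ends are summed in 1 value. Nfatc3 (chr8:106058840-106130537, plus strand) overlaps exons of Esrp2 on the other strand, a splicing factor with 10 reads in Utx KO and 0 in WT.

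**Figure D3:**
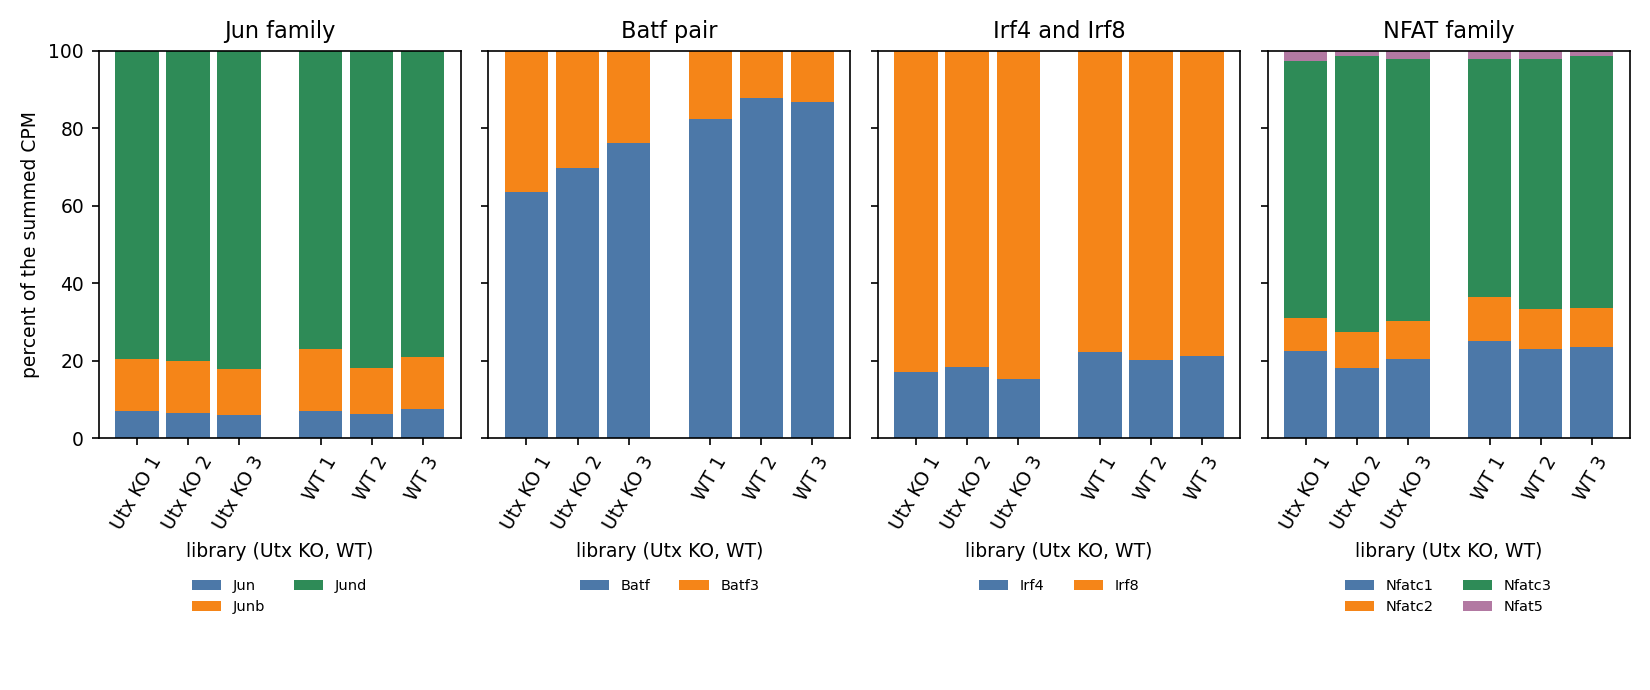
Share of the summed CPM taken by each gene within the Jun family, the Batf pair, Irf4 with Irf8, and the NFAT family, 1 bar for each of 3 Utx KO and 3 WT libraries, axis from 0 to 100%. Batf3 takes 23.7% to 36.4% in Utx KO and 12.2% to 17.6% in WT, while Jund stays near 80.6% in Utx KO and 79.3% in WT.

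The 10 factors kept almost the same order of levels in both genotypes. In Utx KO, from high to low, it was Jund, Nfatc3, Irf8, Junb, Nfatc1, Fosl2, Jun, Irf4, Batf and Batf3. In WT, Nfatc1 stood before Junb and the rest of the order was as in Utx KO. Neighbours whose ranges over 3 libraries overlapped, and so are not separated, were Fosl2 and Jun in Utx KO and Nfatc1 and Junb in WT. The factors spanned means of 8.80 to 709 CPM in Utx KO and 4.24 to 701 CPM in WT, and the lowest single value of any of them was 3.83 CPM. All 10 passed the filter of at least 1 CPM in at least 3 libraries.

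Around the 10 factors, 163 distinct genes in 6 lists were followed, of which 140 were tested and 43 called, 18 higher and 25 lower in Utx KO. Without WT replicate 1 there were 27 such calls, without WT replicate 2 there were 28, and with DESeq2 22. Across all tested genes 10.8% were called, with a median log2 fold change of 0.01. The lists were chosen with earlier results of these data known, so their shares of calls are a description only. Among other leucine zipper factors of the AP-1, Batf, CREB and Maf groups, 3 of 21 tested genes rose and 2 fell (23.8% called, median log2 fold change -0.03). Maf, known in T cells for interleukin 10 expression, fell to 11.7 ± 3.25 CPM in Utx KO, against 58.6 ± 8.33 CPM in WT (log2 fold change -2.26, SE 0.19, limma-trend adjusted p = 9.53e-09). Bach2, a repressor known to compete for AP-1 sites, had 110, 143 and 138 CPM in Utx KO and 56.9, 55.8 and 72.8 CPM in WT. It was higher in each Utx KO library (log2 fold change 1.07, SE 0.12, limma-trend adjusted p = 5.99e-07), and its change was opposite in sign to that of Fosl2. Nfil3, a repressor of the leucine zipper class, fell to 46.6 ± 1.66 CPM in Utx KO, against 81.7 ± 10.3 CPM in WT (limma-trend adjusted p = 4.67e-05). Atf5, a stress-response factor, had 12.1 ± 0.437 CPM in Utx KO and 5.36 ± 1.45 CPM in WT (limma-trend adjusted p = 0.0128). Nfe2l1, a factor for proteasome genes, had 61.6 ± 6.69 CPM in Utx KO and 44.4 ± 7.76 CPM in WT (limma-trend adjusted p = 0.0245). Atf5 lost its call with DESeq2 (0.153) or without WT replicate 3 (0.0626). The call of Nfe2l1 was lost with DESeq2 (0.197) and without Utx KO replicate 2 (0.0667), Utx KO replicate 3 (0.110), WT replicate 1 (0.141) or WT replicate 3 (0.0788), so this list had 3 calls without WT replicate 3. Atf3, a stress-induced factor, had 2.10 ± 1.55 CPM in Utx KO and 1.40 ± 0.801 CPM in WT (limma-trend adjusted p = 0.813).

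Among other IRF family members and their partners, 1 of 13 tested genes rose and 1 fell (15.4% called, median log2 fold change 0.05). Irf2bp2, a co-repressor first found with Irf2, had 147 ± 15.1 CPM in Utx KO and 117 ± 13.8 CPM in WT (log2 fold change 0.33, limma-trend adjusted p = 0.0263). Irf7, the factor that amplifies type I interferon, had 5.16 ± 1.73 CPM in Utx KO and 11.1 ± 3.70 CPM in WT (log2 fold change -0.96, limma-trend adjusted p = 0.0467). Neither call was stable. Irf2bp2 lost it with DESeq2 (0.146) and without Utx KO replicate 2 (0.122), Utx KO replicate 3 (0.0982), WT replicate 1 (0.0630) or WT replicate 2 (0.183). Irf7 lost it under 10 of 17 alternatives, with an adjusted p of 0.292 with DESeq2, 0.145 without Utx KO replicate 2, 0.109 without Utx KO replicate 3, 0.121 without WT replicate 1 and 0.226 without WT replicate 3. With limma-trend, 0 genes of this list were called without Utx KO replicate 2, Utx KO replicate 3 or WT replicate 1, where 5, 3 and 4 had an unadjusted p under 0.05, and 1 was called without WT replicate 2 or WT replicate 3. DESeq2 also called 0, with 3 at an unadjusted p under 0.05, and edgeR called 2.

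Among the other NFAT members and the calcium and calcineurin arm, 2 of 29 tested genes were called as higher and 3 as lower, while 24 did not pass (17.2% called, median log2 fold change 0.07). Ppp3ca, a catalytic subunit of calcineurin, was higher at 248 ± 14.6 CPM in Utx KO, against 191 ± 11.4 CPM in WT (log2 fold change 0.38, SE 0.07, limma-trend adjusted p = 0.000919). Stim2, a sensor of calcium stores, had 76.6 ± 2.27 CPM in Utx KO and 99.7 ± 2.80 CPM in WT (limma-trend adjusted p = 0.0106). Orai1, the pore of the store-operated calcium channel, had 45.5 ± 7.82 CPM in Utx KO and 32.2 ± 4.54 CPM in WT (limma-trend adjusted p = 0.0449), and Nfatc2 was also among the calls. Rcan1, a calcineurin inhibitor whose transcription NFAT is known to drive, had 6.84 ± 1.11 CPM in Utx KO and 5.55 ± 1.37 CPM in WT (limma-trend adjusted p = 0.667). Calls were lost with DESeq2 for Stim2 (0.0956) and Orai1 (0.259), for Stim2 also without WT replicate 2 (0.0624), and for Orai1 without Utx KO replicate 1 (0.209), Utx KO replicate 3 (0.0503), WT replicate 2 (0.0992) or WT replicate 3 (0.188). The list had 2 calls without WT replicate 2 and 3 without WT replicate 3.

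In the MAP kinase arm upstream of AP-1, 3 of 32 tested genes were higher and 4 lower (21.9% called, median log2 fold change -0.01). Fbxw7, the ubiquitin ligase subunit that marks Jun for degradation, fell to 86.2 ± 6.09 CPM in Utx KO, against 124 ± 11.9 CPM in WT (log2 fold change -0.51, SE 0.10, limma-trend adjusted p = 0.000746). Map3k5, a stress-activated kinase, fell to 17.8 ± 1.62 CPM in Utx KO, against 30.6 ± 2.86 CPM in WT (limma-trend adjusted p = 0.00534, but 0.0620 with DESeq2). Mapk3, which encodes the kinase ERK1, had 97.4 ± 11.2 CPM in Utx KO and 74.5 ± 3.04 CPM in WT (limma-trend adjusted p = 0.0187). Rasgrp1, which links the receptor to Ras, had 131 ± 16.7 CPM in Utx KO and 161 ± 6.20 CPM in WT (limma-trend adjusted p = 0.0339). Of the ETS factors that act with Srf on Fos, Elk3 had 18.3 ± 1.59 CPM in Utx KO and 28.2 ± 1.15 CPM in WT (limma-trend adjusted p = 0.0270), and Elk4 had 117 ± 15.7 CPM in Utx KO and 92.5 ± 3.42 CPM in WT (limma-trend adjusted p = 0.0367). With DESeq2 the adjusted p was 0.132 for Mapk3, 0.128 for Rasgrp1, 0.238 for Elk3 and 0.210 for Elk4, and Fbxw7 was the single gene of the list still called. The list had 3 calls without Utx KO replicate 2, 2 without WT replicate 1 and 2 without WT replicate 2. Without WT replicate 2 the adjusted p was 0.0569 for Mapk3, 0.111 for Elk3, 0.116 for Rasgrp1 and 0.125 for Elk4. Without WT replicate 1 it was 0.0821 for Mapk3, 0.0760 for Elk3, 0.119 for Rasgrp1 and 0.0575 for Elk4. Without Utx KO replicate 2 it was 0.132 for Mapk3, 0.0607 for Elk3 and 0.235 for Elk4, without Utx KO replicate 1 it was 0.170 for Rasgrp1, without Utx KO replicate 3 it was 0.0788 for Elk3, and without WT replicate 3 it was 0.0618 for Elk3 and 0.0999 for Elk4.

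Of the genes that the T-cell receptor induces with AP-1 or NFAT input, 12 of 25 tested genes were called, 4 higher and 8 lower in Utx KO (48.0%, median log2 fold change -0.09). The share over all tested genes was 10.8%. Leaving out 1 library gave 9 to 10 calls in this list. Dusp2, a phosphatase that turns MAP kinases off, fell to 30.3 ± 3.78 CPM in Utx KO, against 118 ± 15.7 CPM in WT (log2 fold change -1.92, SE 0.13, limma-trend adjusted p = 6.86e-11). Ifng, the effector cytokine, had 1.59, 1.14 and 1.24 CPM in Utx KO and 8.70, 8.76 and 6.02 CPM in WT, a log2 fold change of -1.91 (SE 0.35, limma-trend adjusted p = 0.000527). Its values rested on 8 reads in Utx KO and 52 in WT. Fasl, the ligand of the death receptor Fas, fell to 18.6 ± 6.61 CPM in Utx KO, against 42.0 ± 4.92 CPM in WT (log2 fold change -1.18, limma-trend adjusted p = 0.000164). Havcr2, which encodes the inhibitory receptor Tim-3, had 3 reads in Utx KO and 33 in WT, a pooled CPM ratio of 0.101 (exact 95% counting interval 0.0198 to 0.321). In the other direction, Tnfrsf4, the co-stimulatory receptor OX40, was higher at 31.5 ± 2.93 CPM in Utx KO, against 8.69 ± 1.91 CPM in WT (log2 fold change 1.76, limma-trend adjusted p = 2.69e-06). Il2ra, the high-affinity interleukin 2 receptor chain, was higher at 622 ± 4.30 CPM in Utx KO, against 501 ± 15.4 CPM in WT (log2 fold change 0.31, limma-trend adjusted p = 0.000158).

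Further receptor-induced genes, several of them commonly read as signs of recent stimulation, were spread over a wide range of levels on day 5. Nr4a1, an orphan nuclear receptor induced within hours of receptor signalling, had 3.57, 3.43 and 3.71 CPM in Utx KO and 1.58, 0.922 and 0 CPM in WT, from 21 and 6 reads (limma-trend adjusted p = 0.0356). Its call was lost under 8 of the 14 alternatives in which it was tested, with an adjusted p of 0.342 with DESeq2, 0.0891, 0.0889 and 0.0936 without Utx KO replicates 1, 2 and 3, 0.0657 without WT replicate 2 and 0.167 without WT replicate 3. Egr1, an immediate-early zinc finger factor, had 62.0, 15.4 and 10.5 CPM in Utx KO and 80.3, 13.8 and 10.9 CPM in WT (limma-trend adjusted p = 0.950). Its spread within a genotype was far wider than the difference between genotypes. Egr2, a relative of Egr1, had 3 reads in Utx KO and 6 in WT and was not tested. Il2 had 2.69 ± 0.791 CPM in Utx KO and 2.51 ± 2.03 CPM in WT (limma-trend adjusted p = 0.822), though 55.0% of the sequence pieces at its 3' end are shared with Ntan1, so its tags are uncertain. Tnf, another early cytokine, had 16.9 ± 4.64 CPM in Utx KO and 22.5 ± 6.04 CPM in WT (limma-trend adjusted p = 0.331).

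**Figure D4:**
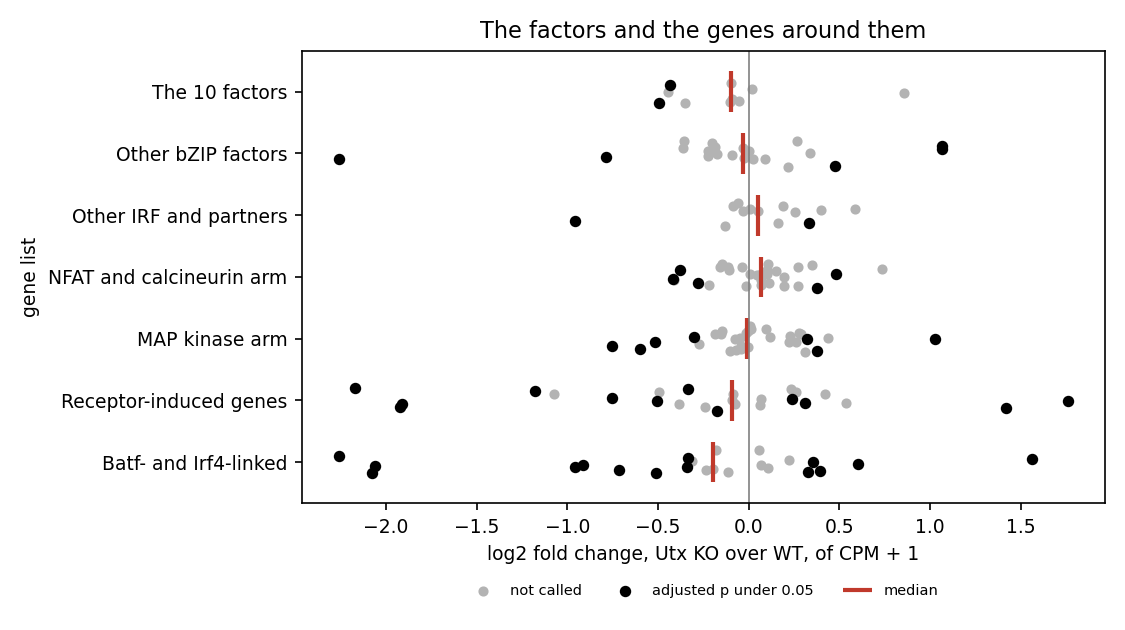
Log2 fold change (Utx KO over WT, on log2(CPM + 1)) of the 10 factors and of every tested gene in the 6 lists around them; black points passed an adjusted p of 0.05, grey points did not, and a red line marks each median. The lists' medians run from -0.20 for the genes linked to Batf and Irf4 to 0.07 for the NFAT and calcineurin arm.

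Of the genes linked to Batf and Irf4 in mouse T cells, 14 of 23 tested genes were called, 5 higher and 9 lower in Utx KO (60.9%, median log2 fold change -0.20). The share over all tested genes was 10.8%. Without WT replicate 1 there were 9 calls in this list. The list holds genes that these factors are known to raise and genes they are known to lower, so its count gives no single direction of their activity. Id2, which blocks E proteins and is needed by effector cells, fell to 702 ± 30.3 CPM in Utx KO, against 1321 ± 30.0 CPM in WT (log2 fold change -0.91, SE 0.05, limma-trend adjusted p = 4.12e-13). Gzmb, the granule protease granzyme B, fell to 785 ± 104 CPM in Utx KO, against 1283 ± 58.2 CPM in WT (limma-trend adjusted p = 1.79e-08). Prdm1, which encodes the effector factor Blimp-1, fell to 16.1 ± 3.02 CPM in Utx KO, against 31.9 ± 3.12 CPM in WT (log2 fold change -0.96, SE 0.19, limma-trend adjusted p = 0.000979). Eomes, a T-box factor, fell to 189 ± 13.3 CPM in Utx KO, against 269 ± 11.1 CPM in WT (limma-trend adjusted p = 2.33e-05). Il1rl1, the receptor of interleukin 33, fell to 1.89 ± 1.52 CPM in Utx KO, against 9.96 ± 1.80 CPM in WT (10 and 64 reads, limma-trend adjusted p = 0.000614). Maf is also in this list, and the 17 alternatives kept the calls of all 6 of these genes. Batf and Irf4 themselves, with log2 fold changes of -0.35 and -0.45, did not pass the test, and Eomes had the smallest change of the 6 at -0.51.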

How the data were processed

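Splenic CD8 T cells were measured in 6 libraries, 3 Utx KO and 3 WT, made with a QuantSeq 3' kit from 500 ng of total RNA, per the labels' protocols. The authors deposited CPM values for 25655 Ensembl identifiers, of which 25600 matched a symbol; the builds GRCm38 and mm10 are named in the submitters' processing notes. Neither aligner nor counter, strand setting nor filters could be named, being not given in the sources used. Dividing the deposited CPM by the value of 1 read gave whole reads for 100% of values above 0 (tolerance 0.001 reads).

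Genes with at least 1 CPM in at least 3 libraries were tested with limma-trend (limma 3.58.1, R 4.3.3) on log2(CPM + 1), genotype as the only term, two-sided, with Benjamini-Hochberg adjustment over all tested genes and a threshold of 0.05. The alternatives were pseudocounts of 0.1 and 0.5 CPM, a filter of at least 5 CPM or none, TMM scaling, quantile normalization, robust moderation, a replicate block, each library left out, and, on the recovered reads, edgeR 4.0.16 (1106 of 8832 genes called), DESeq2 1.42.0 and limma-voom. Simulated data were run through limma-trend with and without the replicate block, edgeR, DESeq2 and limma-voom, and not through the other alternatives. The outcome is not given here.

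The 10 members and the lists were chosen with earlier results of these data known. Named were all members, up to 6 called genes per list with the lowest adjusted p, and Fos, Fosb, Fosl1, Nfatc2, Atf3, Bach2, Egr1, Egr2, Nr4a1, Il2, Tnf, Rcan1, Prdm1 and Kdm6a whatever their result; the genes that overlap a member's exons were added after their positions were seen. A called list gene that this rule names is not reported here. The labels call the samples biological replicates without saying that they came from separate animals, and the p-values cover only how far these samples spread, which may be technical. Libraries of a group differed by more than sampling noise, with 1.33 to 1.99 as the ratio of chi-square to its degrees of freedom. An exact permutation test of 3 against 3 libraries cannot go below p = 0.10, so shares within families were not tested. Promoters were RefSeq entries (9 of 10 members matched), and gene positions came from GENCODE M21.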

Additional observations from a re-analysis of the deposited data

How the results depend on the processing

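Of 170 refitted log2 fold changes of the 10 factors (17 alternatives each), 159 kept their direction and side of the threshold, 6 newly passed it (Batf3 and Irf4) and 5 reversed (Jun, Junb and Jund). Leaving out 1 library gave -0.19 to 0.015 for Jun, -0.20 to 0.0020 for Junb and -0.017 to 0.047 for Jund. Of 622 refits of other named genes, 538 were unchanged in this sense, 74 lost a call and 10 reversed, all among Fos, Fosb, Atf3, Egr1 and Il2; Fos had 0.35 with DESeq2, and leaving out 1 library gave -0.47 to 0.39 for Fos, -0.0025 to 0.85 for Fosb, -0.072 to 0.76 for Atf3, -0.82 to 0.78 for Egr1 and -0.26 to 0.67 for Il2. For shares within families, leaving out 1 library gave differences (Utx KO minus WT) of -1.82 to 0.19 percentage points for Junb and -0.17 to 0.54 for Nfat5. The differences of the other genes in these families kept their sign.

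Factors called numbered 2, and 4 with edgeR. Calls across all genes numbered 1142, but 551 with DESeq2, 627 at an adjusted p under 0.01 and 747 to 1056 without 1 library. In the 6 lists together there were 43 calls, but 22 with DESeq2, 24 at 0.01 and 27 to 38 without 1 library. In the same order, the leucine zipper list had 5, then 3, 3 and 3 to 5; the IRF list 2, then 0, 0 and 0 to 2; the NFAT list 5, then 2, 2 and 2 to 5; and the MAP kinase list 7, then 1, 2 and 2 to 5. The list linked to Batf and Irf4 had 14, 9 with DESeq2 and 9 to 13 without 1 library. The receptor-induced list had 12, and 9 to 10 without 1 library. The IRF list had 1 call with a pseudocount of 0.5 CPM and 1 without a filter, and the NFAT list 3 with a pseudocount of 0.1 CPM and 3 without a filter. The cause of these shifts was not tested.

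With a replicate block there were 1065 calls across all genes, 515 higher and 550 lower in Utx KO, and 2 factors; of the named genes Nfatc2 lost its call (adjusted p = 0.0606), and no other named gene's call changed. The labels do not say that the numbers pair samples, so genotype alone was the main model. Deviations of same-numbered libraries correlated at 0.0060, -0.0027 and -0.0096 over all tested genes, and no library correlated best with its own number. Such a correlation over all genes cannot tell whether a small set of genes moved together by number. Depth limits Batf3, Fos, Fosb, Atf3, Nr4a1, Il2, Ifng, Il1rl1, Havcr2 and Irf7, which lie near the level of a few reads in at least 1 genotype.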

Other observations

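In both genotypes replicate 1 held the highest level of several genes that receptor signals are known to switch on within hours, a pattern noticed in the values and not tested. Of the 25 tested receptor-induced genes, 6 (Egr1, Cd69, Tnf, Icos, Ier2 and Dusp5) were highest in replicate 1 of both Utx KO and WT, that is 24.0%, against 11.8% of all tested genes. Of the 21 tested leucine zipper factors outside the 10 described, 5 (Fos, Fosb, Atf4, Crem and Maff) were, that is 23.8%, and of the 10 factors 3 were, Fosl2, Junb and Batf3. The share was 23.1% in the IRF list (3 of 13), 15.6% in the MAP kinase list (5 of 32), 13.8% in the NFAT and calcineurin list (4 of 29) and 8.70% in the list linked to Batf and Irf4 (2 of 23). For Egr1 the values were 62.0 CPM in Utx KO replicate 1 and 80.3 CPM in WT replicate 1, against 10.5 to 15.4 CPM in the other 2 Utx KO libraries and 10.9 to 13.8 CPM in the other 2 WT libraries.

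Kdm6b, the autosomal relative of Kdm6a with the same enzymatic activity, had 25.0, 42.3 and 24.1 CPM in Utx KO and 22.5, 18.0 and 25.2 CPM in WT (log2 fold change 0.42, SE 0.20, limma-trend adjusted p = 0.211). The groups overlapped, and the highest value stood in Utx KO replicate 2.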
